A study of Drosophila melanogaster with 27 samples.

Results

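Germ cells and somatic cells of the larval ovary were compared at 72 h after egg laying (AEL), the earliest of the 3 larval stages of the series. The comparison used 6 of the 27 RNA-seq libraries of the series, 3 of sorted germ cells and 3 of sorted somatic cells, and covered all genes of the deposited table. The libraries were chosen by their labels alone, without use of expression values.

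The study profiled ovaries of Drosophila melanogaster at 72, 96 and 120 h AEL as whole ovaries, sorted somatic cells and sorted germ cells, with 3 samples of each. Ovaries of many larvae were pooled, dissociated with trypsin and then Liberase, and GFP-positive cells were sorted by FACS into Trizol. Libraries were made from poly(A)-selected RNA and read as 50 bp single ends.

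Somatic cells (strain label bab:Gal4>GFP) were sorted from progeny of bab:GAL4 males and UAS:Green Stinger females. That driver is a GAL4 element inserted in an intron of bab1, kept over the balancer TM6B, and it drives nuclear GFP in the somatic cells of the larval ovary. Germ cells (strain label nos:GAl4>GFP) came from nos:GAL4 males and the same females. The nos:GAL4 line, which expresses GAL4 under germ line control of nanos, also carries UAS-Dcr-2.D, so these germ cells held an inducible copy of Dcr-2 that the somatic cells lacked. The UAS:Green Stinger parent was common to both groups, and all 6 libraries were of the same stage and rearing conditions. Driver parent and cell type differed together and cannot be told apart. Whole ovaries of 72 h were of the Oregon R strain, without transgenes, and are given below only as a description.

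At 72 h the ovary holds primordial germ cells that have not yet begun oogenesis, intermingled with or surrounded by somatic cells that will form terminal filaments, cap cells, escort cells and sheath cells. Germ cells are known for the nuage, a perinuclear structure in which Piwi-family proteins and Tudor-domain proteins make piRNAs against transposons, and for translational regulators that hold the stem cell state. Somatic cells supply the niche signals, adhesion proteins and extracellular matrix that shape the ovary.

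Germ cell libraries held 21678745, 56982925 and 33245042 expected counts in replicates 1, 2 and 3, and somatic libraries 44362772, 58468544 and 36445782. A count of 3 corresponded to between 0.0513 and 0.138 CPM (counts scaled to a fixed library total) in these libraries, a limit that covers counting error only. Between 9275 and 10779 genes had counts in each library. CPM values below are expected counts per library size after TMM scaling. On the first principal component, which held 69.4% of the variance, germ replicate 1 lay at -71.5, germ replicates 2 and 3 at -28.6 and -20.7, and the somatic libraries between 37.1 and 44.9. Germ replicate 1 was thus farther from the other germ replicates (distances of 67.4 and 72.6) than these were from each other (38).

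Germ line markers matched the labels in all 6 libraries. The gene nos, whose regulatory sequences drive the germ line GAL4, had 269, 236 and 227 CPM in germ cells and 0, 2.43 and 2.18 CPM in somatic cells. The helicase gene vas had 1335, 934 and 874 CPM in germ cells against 6.67, 16.4 and 4.42 CPM in somatic cells. All 8 markers of germ cells (nos, vas, aub, AGO3, bgcn, zpg, ovo and otu) were higher in every germ library than in any somatic library, with a median log2 fold change of 6.79. Their summed level in somatic replicates 1, 2 and 3 was 0.862%, 1.49% and 0.581% of the germ cell mean.

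Somatic markers separated the groups less fully. The transcription factor gene tj had 385, 464 and 362 CPM in somatic cells, and 5.37, 99.2 and 154 CPM in germ replicates 1, 2 and 3. The gene bab2, a paralog of bab1, had 433, 352 and 410 CPM in somatic cells and 16.5, 128 and 201 CPM in germ cells. Germ replicate 1 was the lowest library for both genes, and germ replicates 2 and 3 lay between it and the somatic libraries. The 10 somatic markers (tj, bab1, bab2, zfh1, Six4, eya, fax, Wnt4, en and hh) summed to 4.97%, 28.0% and 37.0% of the somatic mean in germ replicates 1, 2 and 3. In bulk RNA, fewer cells of a type and less RNA per cell cannot be told apart. Of these 10 markers, 7 had all somatic libraries above all germ libraries and none passed an adjusted p of 0.01, with adjusted p = 0.0557 for tj and 0.0204 for Wnt4 by edgeR. Six4 and en, also on the list, were at or below 2.6 CPM in every library. With germ replicate 1 as the only germ library of 72 h, the median log2 fold change of the list was -4.53 in place of -1.66. The part of these somatic transcripts in the results below was not tested, and medians with replicate 1 alone are given for several of the lists below. Replicate 1 was singled out for its low somatic markers, and that fit has 1 germ library of 72 h. Its results are therefore a description and support nothing on their own.

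**Figure D1:**
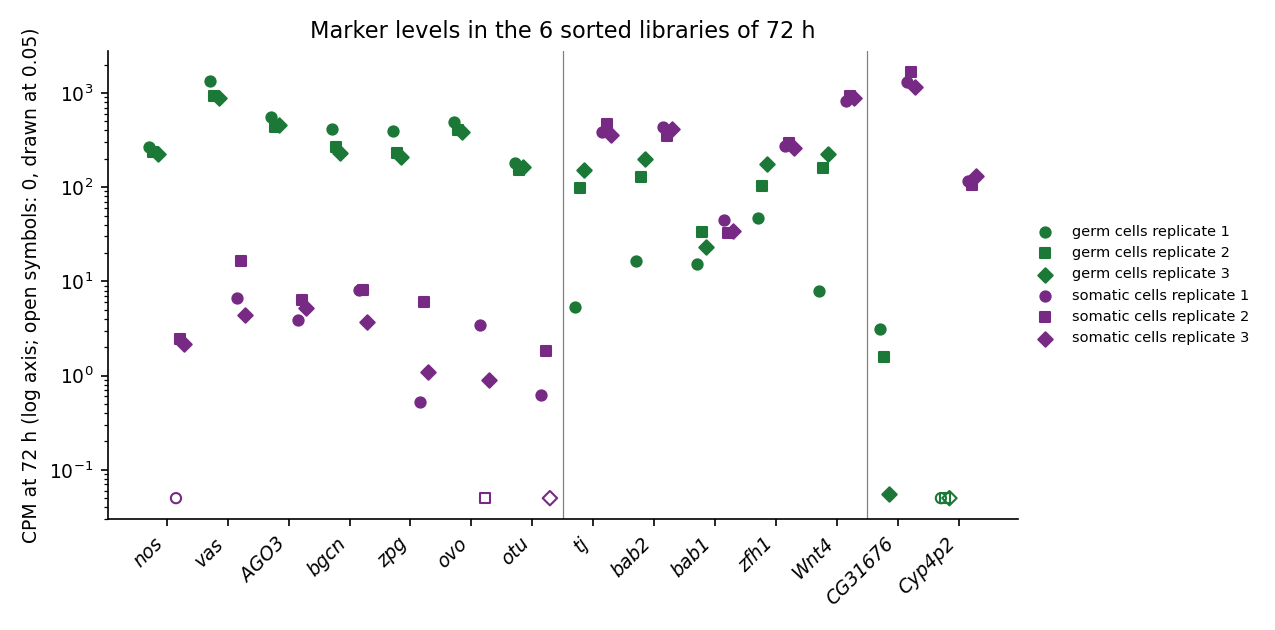
CPM (log axis) of 14 genes in each of the 6 libraries of 72 h, with germ cells in green, somatic cells in purple and a symbol for each replicate. Open symbols at 0.05 stand for values of 0. Germ line genes at the left lie above 150 CPM in every germ library and below 17 CPM in every somatic library, while for tj, bab2, zfh1 and Wnt4 germ replicates 2 and 3 lie above germ replicate 1, and CG31676 and Cyp4p2 at the right are near or at 0 in all 3 germ libraries.

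Genes were tested by edgeR's quasi-likelihood test on the 18 sorted libraries of the 3 stages, which share an estimate of the spread, with the contrast of germ against somatic cells at 72 h. Of 11243 genes tested, 363 (3.23%) were higher in germ cells and 176 (1.57%) were higher in somatic cells at a Benjamini-Hochberg adjusted p under 0.01. These are named "called" below, and a gene that was not called is not shown to be equal in both. Counts of called list members below stand beside these shares of all genes. Each of the 363 had every germ library above every somatic library, and each of the 176 the reverse. Of the genes tested, 22.1% and 18.7% were separated in these ways. Called genes differed more in germ cells (median log2 fold change 3.69) than in somatic cells (-1.37). A log2 fold change above 5 was found for 144 of the 363, and below -5 for 17 of the 176. Both medians and both counts were the same with genes at 0 in one group set to the bound that 3 counts allow. Positive fold changes below mean higher in germ cells.

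The number of calls moved with the libraries used. Without germ replicate 1, 230 genes were higher in germ cells and 64 in somatic cells, and without somatic replicate 3 the counts were 231 and 58. The libraries of 96 h enter through the shared spread. Leaving out germ replicate 1 of 96 h, a shallow library, gave 571 genes higher in germ cells and 302 in somatic cells. Leaving out germ replicate 4 of 96 h gave 503 and 383. With germ replicate 1 as the only germ library of 72 h, 297 were higher in germ cells and 504 in somatic cells, so that 37.1% of calls were higher in germ cells in place of 67.3%. With library totals in place of TMM scaling, 89.1% of calls (565 against 69) were higher in germ cells. That scaling moved the median log2 fold change of all genes from 0.0788 to 0.434, a shift of 0.355, and fold changes smaller than this shift have no fixed sign. Without all 3 germ libraries of 96 h, 853 genes (7.6%) were higher in germ cells and 618 (5.51%) in somatic cells. With DESeq2 there were 1069 genes (9.74%) higher in germ cells, which held all 363, and 714 (6.5%) higher in somatic cells, which held 175 of the 176.

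**Figure D2:**
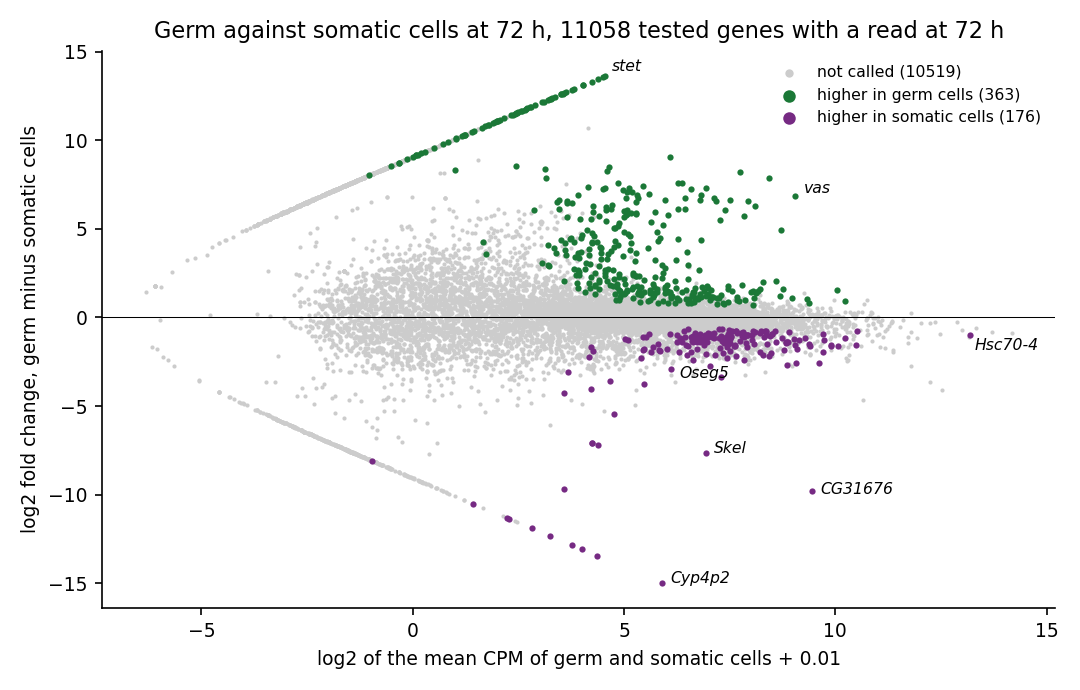
Log2 fold change at 72 h against the log2 mean CPM of germ and somatic cells, for the 11058 of 11243 tested genes with a count in any of the 6 libraries. Green points mark the 363 genes higher in germ cells, purple points the 176 higher in somatic cells, and the straight outer lines hold genes at 0 in one group, whose fitted values depend on the prior count and are no measure of size.

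Genes of the nuage and of germ line piRNA production were among those with the smallest p. In the list of nuage and ping-pong piRNA genes, 9 of 23 tested members were higher in germ cells and none in somatic cells, against 3.23% and 1.57% of all genes, with a median log2 fold change of 0.70 over the list. The Tudor-domain gene tej had 135, 91.2 and 88.1 CPM in germ cells and 1.29, 1.72 and 2.06 CPM in somatic cells, a log2 fold change of 5.95 ± 0.37 (SE, adjusted p = 8.83e-08). AGO3, a Piwi-family slicer of the ping-pong cycle, had 559, 440 and 462 CPM against 3.85, 6.40 and 5.20 CPM (6.56 ± 0.47, adjusted p = 4.75e-07). No germ library of either gene came near a somatic library. For krimp, whose Tudor-domain product binds AGO3, the values were 268, 140 and 113 CPM against 2.15, 0.909 and 1.88 CPM (6.72 ± 0.55). The Piwi-family gene aub had 785, 447 and 384 CPM in germ cells and at most 10.9 CPM in somatic cells.

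Other members of the same pathway were shared by both cell types. The helicase gene spn-E, named after its values were seen, had 1044, 813 and 741 CPM in germ cells and 412, 446 and 406 CPM in somatic cells, a log2 fold change of 1.04 ± 0.20. Of the 14 members that were not called, armi, which encodes a helicase of primary piRNA production, had a log2 fold change of -0.61 (adjusted p = 0.11). The gene piwi, which acts in the nucleus, had 1926, 2019 and 1934 CPM in germ cells and 2309, 2123 and 2547 CPM in somatic cells, and its log2 fold change of -0.25 did not pass the test (adjusted p = 0.486). None of 7 tested genes of nuclear piRNA silencing, the list that holds piwi, was called in either direction.

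Transcription of dual-strand piRNA clusters in the germ line uses a complex around the HP1 paralog Rhino. In that list 5 of 6 tested genes were higher in germ cells, against 3.23% of all genes. All 6 had every germ library above every somatic library, against 22.1% of all genes, with a median log2 fold change of 4.80. The Rhino gene, rhi, had 49.5, 35.3 and 29.0 CPM in germ cells against 0, 0.830 and 0.986 CPM in somatic cells (5.97 ± 0.84, adjusted p = 0.000262). Its partner del had 96.5, 77.6 and 65.7 CPM against 25.0, 22.3 and 26 CPM (1.71 ± 0.25), so that del transcripts were present in somatic cells where those of rhi were near the floor. Boot, which links these transcripts to export, had 171, 114 and 89.6 CPM against at most 1.96 CPM. The export factor gene Nxf3 was the member not called (1.45 ± 0.39, adjusted p = 0.0217).

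Regulators of germ line stem cells and their differentiation were higher in germ cells for 7 of 15 tested genes, against 3.23% of all genes. The gene bgcn, whose product acts with Bam to start differentiation in the adult ovary, had 415, 264 and 231 CPM in germ cells and 8.01, 8.14 and 3.73 CPM in somatic cells (5.51 ± 0.48, adjusted p = 3.61e-06). In contrast bam itself had 3.35, 7.49 and 6.54 CPM in germ cells and 0.884, 3.06 and 1.91 CPM in somatic cells, with groups that did not overlap and an adjusted p of 0.0831. The germ line transcription factor gene ovo had 490, 402 and 389 CPM against 3.44, 0 and 0.896 CPM, and otu, which acts with Sex-lethal in female germ cell identity, had 179, 151 and 162 CPM against 0.621, 1.82 and 0 CPM. Both stood far apart between the groups. The RNA-binding protein gene Rbp9 had a log2 fold change of 3.65 ± 0.50 (adjusted p = 0.000198).

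Genes of meiosis were already present in germ cells of this stage. In the list of synaptonemal complex and meiotic recombination genes, 11 of 29 tested members were higher in germ cells and none in somatic cells. The shares of all genes were 3.23% and 1.57%, and the list had a median log2 fold change of 1.54. The gene c(3)G, which encodes the transverse filament of the synaptonemal complex, had between 201 and 234 CPM in the germ libraries against 7.24, 12.9 and 11.9 CPM in somatic cells (4.34 ± 0.33, adjusted p = 5.61e-07). The cohesion gene sunn had 196, 164 and 151 CPM against 3.46, 3.08 and 0.717 CPM (6.12 ± 0.54). hdm, needed for meiotic crossovers, had 24.1, 20.1 and 17.9 CPM in germ cells and no count in somatic cells, at least 868-fold higher against 3 counts over the somatic group. Members without a call included mei-W68, which encodes the nuclease that makes meiotic breaks, with a log2 fold change of -0.89 (adjusted p = 0.41).

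Genes of oocyte RNA regulation gave 7 calls of 19 tested members, all higher in germ cells, against 3.23% of all genes. The median log2 fold change of the list was 0.36. orb, a cytoplasmic polyadenylation factor of the oocyte, had 493, 251 and 251 CPM in germ cells and 3.06, 6.98 and 4.69 CPM in somatic cells (6.08 ± 0.48, adjusted p = 1.11e-06). cup, an eIF4E-binding repressor of translation, had 56.0, 41.6 and 41.2 CPM against 1.65, 0.573 and 0.986 CPM (5.43 ± 0.43). The localization factor gene exu had 96.8, 55.5 and 52.1 CPM against 4.47, 3.18 and 0.657 CPM. On the other side sqd, an hnRNP gene of the same list, had a log2 fold change of -1.23 that did not pass the test (adjusted p = 0.061). Among genes of primordial germ cells and germ plasm 5 of 11 were higher in germ cells, against 3.23% of all genes, all of them also on the marker list.

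Some cell cycle genes were higher in germ cells. Of 28 cyclins and cell cycle regulators, 5 were higher in germ cells, against 3.23% of all genes, and none in somatic cells. lok, the Chk2 checkpoint kinase gene, had 412, 331 and 284 CPM in germ cells against 106, 100 and 86.5 CPM in somatic cells (1.81 ± 0.22, adjusted p = 6.36e-05). twe, the Cdc25 phosphatase of meiosis, had 33.0, 35.5 and 27.4 CPM against 8.87, 11.1 and 11.4 CPM (1.61 ± 0.24), and the kinase gene Wee1 88.2, 100.4 and 96.1 CPM against 45.2, 47.9 and 37.9 CPM (1.12 ± 0.18). None of 23 tested genes of replication licensing was called, with a median log2 fold change of 0.44. In the repair list 2 of 26 genes were higher in germ cells, against 3.23% of all genes. They were lok and p53, the latter with 54.2, 40.7 and 37.2 CPM against 11.1, 19.7 and 14.6 CPM (1.54 ± 0.33). The call of p53 was lost without any 1 of 8 libraries, germ replicate 1 among them, with adjusted p up to 0.0364.

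Most ribosomal protein genes were not called. Of 89 tested cytosolic ribosomal protein genes 4 were higher in germ cells and none in somatic cells, against 3.23% and 1.57% of all genes, and the median log2 fold change of 0.04 was close to that of all genes (0.0788). RpS5b had 1069, 745 and 642 CPM in germ cells and 39.4, 31.3 and 8.01 CPM in somatic cells (4.96 ± 0.56, adjusted p = 3.82e-05), while its paralog RpS5a had 1343, 1736 and 1685 CPM against 1616, 2359 and 1382 CPM. RpS10a had 83.4, 55.4 and 50.3 CPM against 0.406, 1.32 and 1.94 CPM (5.69 ± 0.58), and RpS10b lay between 770 and 1504 CPM in all 6 libraries. RpL22-like had 40.9, 27.8 and 15.6 CPM in germ cells and no count in somatic cells, at least 1179-fold higher, where RpL22 lay between 874 and 1770 CPM. The paralogs RpS5a, RpS10b and RpL22 were looked up after these values were seen. Some other pairs had no called member, for example RpL34a and RpL34b (log2 fold changes of 0.27 and -0.01). Reads shared by such paralogs were divided between them by the authors' counting, so the low values carry this uncertainty.

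Genes of sex determination gave 2 calls of 13 tested members, both in germ cells, against 3.23% of all genes. Phf7, a chromatin reader known for male germ cell identity, had 89.0, 95.9 and 78.4 CPM in germ cells against 21.4, 20.4 and 12.7 CPM in somatic cells (2.27 ± 0.22, adjusted p = 8.09e-06). The other was the splicing factor gene snf (0.98 ± 0.22, adjusted p = 0.00935), whose call was lost without any 1 of 13 libraries, germ replicate 1 among them. Sxl, the switch gene of female development, had 523, 435 and 438 CPM against 328, 277 and 427 CPM, and its log2 fold change of 0.43 did not pass the test (adjusted p = 0.438).

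Some of the smallest p fell outside these lists. mGluR, a metabotropic glutamate receptor gene on chromosome 4 (936819 to 949441 in the BDGP6 assembly), had 48.5, 38.4 and 39.0 CPM in germ cells and between 0.568 and 1.05 CPM in somatic cells (5.70 ± 0.43, adjusted p = 5.61e-07). fs(1)N, known for its part in the eggshell and in Torso signalling of the embryo, had 98.9, 78.0 and 52.3 CPM against 0.406, 0.929 and 1.14 CPM (6.54 ± 0.56). Kul, a metalloprotease gene related to kuzbanian, had 156, 120 and 109 CPM against 3.68, 2.43 and 0.747 CPM (5.80 ± 0.52). RapGAP1, an inhibitor of the GTPase Rap1, was present in both cell types, with 109, 98.4 and 98.6 CPM against 19.4, 17.9 and 17.5 CPM (2.48 ± 0.23). The remaining genes of the 15 with the smallest p were CG32814, CG31075 and Reph, with log2 fold changes of 6.09, 3.69 and 3.25. CG32814 shares its strand with the overlapping gene CG11638, so that its reads are uncertain.

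A gene without a count in all 3 somatic libraries was found 1086 times among the genes tested, and 67 of these were called higher in germ cells. No count in all 3 germ libraries was found 533 times, with 10 called higher in somatic cells. Both numbers include 185 genes without a count in all 6 libraries. stet, a rhomboid protease gene known to release EGF ligands from germ cells, had 51.6, 38.5 and 45.6 CPM in germ cells (adjusted p = 9.58e-06) and was at least 1899-fold higher there. It was the member of the EGFR list called in germ cells. That list gave 1 call in germ cells and 2 in somatic cells of 23, against 3.23% and 1.57% of all genes. In the innexin list zpg, the germ line gap junction gene, had 390, 231 and 210 CPM against 0.526, 5.99 and 1.10 CPM (6.75 ± 1.14, adjusted p = 0.00113), and its call was lost without somatic replicate 1 or somatic replicate 3 (adjusted p up to 0.016). Of the 363 genes higher in germ cells, 114 (31.4%) had a symbol of CG and digits, as had 30 of the 176 (17.0%) higher in somatic cells. Among all 11243 genes tested, 3749 had such a symbol, so the germ cell share was not raised.

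In somatic cells the smallest p belonged to a cytochrome P450 gene. Cyp4p2 (chromosome 2R, 9237512 to 9239831) had 118, 106 and 132 CPM in somatic cells and no count in the germ libraries, at least 5088-fold higher in somatic cells against 3 counts over the germ group (adjusted p = 8.83e-08). Its neighbour Cyp4p1 (9240041 to 9242139) had 26.8, 37.8 and 58.9 CPM and again no count in germ cells, at least 1768-fold higher (adjusted p = 1.07e-05). The third gene of the cluster, Cyp4p3, had 1.53, 1.01 and 4.72 CPM in somatic cells, no count in germ cells and an adjusted p of 0.0493. All 3 genes lie within hig on the opposite strand, and hig was below 3.1 CPM in every library. Of 58 cytochrome P450 genes tested, 3 were called in somatic cells and none in germ cells, against 1.57% and 3.23% of all genes. The third was Cyp9c1, with 108, 123 and 147 CPM against 18.4, 32.9 and 46.5 CPM (-1.95 ± 0.32).

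Some other calls in somatic cells lay in the same stretch of chromosome 2L, with genes that were not called between them. Whether calls lie near each other more often there than elsewhere was not tested. CG31676 (20840750 to 20849182) had 1321, 1667 and 1170 CPM in somatic cells and 3.13, 1.58 and 0.0549 CPM in germ cells, a log2 fold change of -9.79 ± 1.33 (adjusted p = 0.0002). Germ replicates 2 and 3 were thus as low as replicate 1 for this gene, unlike for tj and bab2. The noncoding gene lncRNA:CR44307 (20847844 to 20848143) lies inside it on the opposite strand and had 9.32, 11.2 and 8.63 CPM in somatic cells and no count in germ cells. Without strand in the counting its reads cannot be told apart from those of CG31676. Oseg5 (20832849 to 20835840), a gene of intraflagellar transport, had 124, 110 and 132 CPM against 18.1, 14.4 and 15.4 CPM (-2.94 ± 0.29, adjusted p = 8.09e-06). The septate junction gene vari (20788662 to 20797042) had 298, 394 and 293 CPM against 37.4, 85.6 and 98.4 CPM (-2.15 ± 0.30). Between them CG9328 and CG31673 were not called (log2 fold changes of -0.54 and -0.20), nor was bero downstream (-1.06, adjusted p = 0.396). CG9331 (-1.86, adjusted p = 0.0321) and CG31674 (-1.95, adjusted p = 0.174), between vari and Oseg5, were lower in germ cells without a call. CG33322 and CheB38c, also between these, had positive values at no more than 3.05 CPM in any library.

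Other genes with the smallest p in somatic cells had varied known roles. Skel, the gene of the spindle matrix protein Skeletor, had 126, 307 and 299 CPM in somatic cells and 1.66, 1.61 and 0.385 CPM in germ cells (-7.64 ± 0.92, adjusted p = 6.94e-05). Con, which encodes the homophilic adhesion protein Connectin, had 41.1, 32.4 and 32.5 CPM against 3.02, 2.14 and 1.29 CPM (-4.04 ± 0.50). Epac, an exchange factor for Rap1 that responds to cAMP, had 72.1, 33.0 and 35.1 CPM against 4.30, 2.48 and 5.08 CPM (-3.57 ± 0.42). For these genes all germ libraries were near the bottom of the scale. By contrast, Agpat3, an acyltransferase gene of phospholipid synthesis, had 208, 255 and 230 CPM against 49.1, 54.6 and 57.5 CPM (-2.10 ± 0.23), and germ levels there were well above the floor. mbc, a regulator of Rac in myoblast fusion and cell migration, and MRP, an ABC transporter gene, had log2 fold changes of -2.01 and -1.97. CG32845 had -3.06. CG42329 and Dnaaf3, a dynein assembly gene, had no count in germ cells and were at least 820.2-fold and 603-fold higher in somatic cells.

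Most genes higher in somatic cells kept part of their level in germ libraries. Over the 176 genes, the median level in germ replicates 1, 2 and 3 was 25.1%, 40.8% and 48.2% of the somatic mean, and replicate 1 was the lowest germ library for 156 of them. The order of the germ libraries is that of the summed somatic markers (4.97%, 28.0% and 37.0%). In 16 of the 176 genes (9.09%) both germ replicate 2 and germ replicate 3 stood under 5% of the somatic mean, below the level of the marker sum in the same libraries. Of all 6217 genes tested with over 10 CPM in somatic cells, called or not, 17 did so, a population that leaves out those of the 16 at lower levels. Besides Cyp4p2, Cyp4p1, CG31676, lncRNA:CR44307, Skel, CG42329 and Dnaaf3, the 16 held sordd2, CG10486, CG6867, CG7582, SteXh:CG42398, Hsc70-2 and its neighbour CG31157, and CR43214 and CR43215. The last 2 had identical values in every library, so that their reads cannot be told apart.

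Levels in whole ovaries of 72 h set these genes apart again. CG31676 had 825 CPM and Oseg5 140 CPM in whole ovaries (mean of 3 libraries scaled with the sorted libraries). Oseg5 was thus near its level in somatic cells, while CG31676 was below its 1170 to 1667 CPM there. Cyp4p2 was at 0.205 CPM there, Skel at 2.21 CPM, Hsc70-2 at 0.116 CPM, CG10486 at 0.0195 CPM and sordd2 at 0. The neighbours of Cyp4p2 were present in whole ovaries, Cyp4p1 at 19.0 CPM and Cyp4p3, which was not called, at 22.5 CPM. Whole ovaries held under 5% of the sorted level for 11 of the 176 somatic calls (6.25%) and for 2 of the 363 germ calls (0.551%). Over all tested genes above 1 CPM these shares were 0.953% and 0.727%. Among the 11 were also p24-2, with 146, 113 and 157 CPM in somatic cells, 28.8, 68.1 and 67.9 CPM in germ cells and no count in whole ovaries, and CG8086. In germ cells they were Dscam4 and lncRNA:CR43857. Whole ovaries differed from sorted cells in strain, transgenes and handling, which cannot be told apart here.

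**Figure D3:**
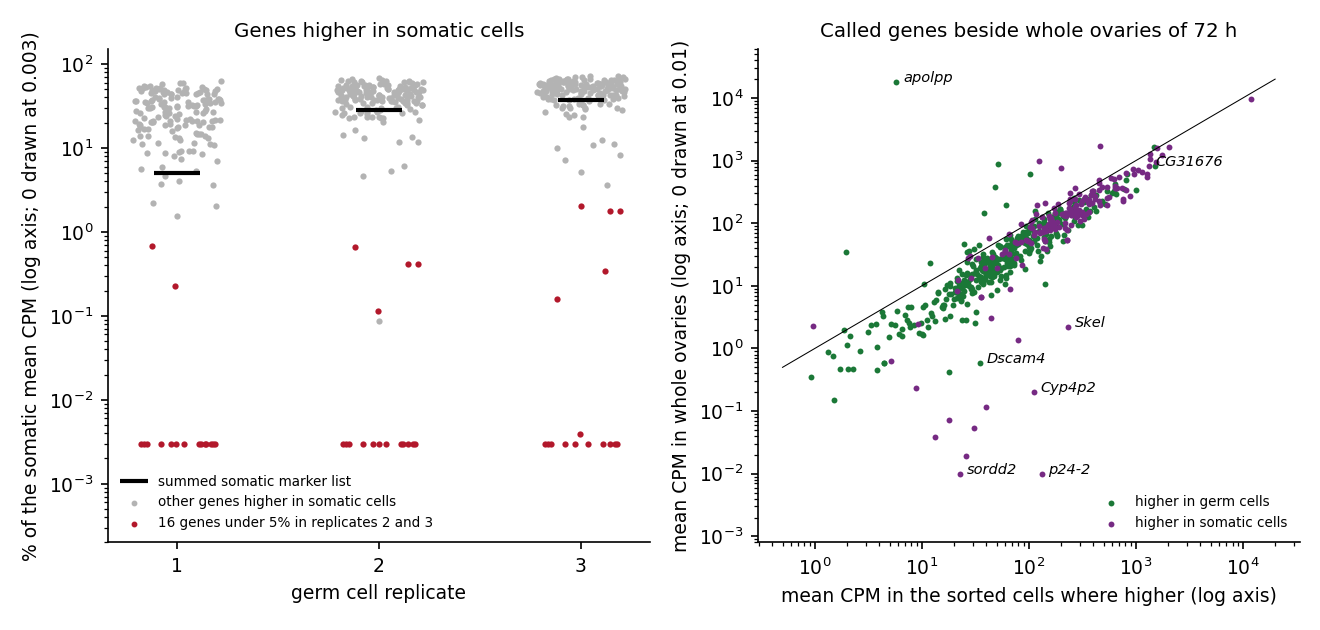
Left, level of each of the 176 genes higher in somatic cells in germ replicates 1, 2 and 3, as a percentage of the somatic mean (log axis, 0 drawn at 0.003), with 16 genes under 5% in replicates 2 and 3 in red and the summed somatic markers (4.97%, 28.0% and 37.0%) as bars. Right, mean CPM in whole ovaries against mean CPM in the sorted cells where the gene was higher (both axes log, 0 drawn at 0.01, line of equality), with 11 genes higher in somatic cells under 5% of the sorted level.

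Transcription factors of the somatic gonad followed the markers. Of 32 tested, 2 were higher in somatic cells and 1 in germ cells, against 1.57% and 3.23% of all genes. The median log2 fold change of the list was -1.03, or -3.23 with germ replicate 1 alone. The LIM-homeodomain gene ap had 56.7, 48.1 and 54.2 CPM in somatic cells and 0.809, 0.0459 and 2.77 CPM in germ cells (-5.47 ± 1.16, adjusted p = 0.00628). sd, the DNA-binding partner of Yorkie, had 353, 328 and 434 CPM against 119, 137 and 203 CPM (-1.28 ± 0.28, adjusted p = 0.00754). zfh2, a zinc finger homeodomain gene, went the other way with 17.6, 11.8 and 20.2 CPM in germ cells against 1.05, 1.11 and 4.63 CPM in somatic cells (2.88 ± 0.61, adjusted p = 0.00585). The calls of all 3 were lost when any of several libraries, germ replicate 1 of 72 h in each case, was left out, with adjusted p up to 0.0392, 0.0444 and 0.0309.

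Integrins and their adhesion complex link cells to the extracellular matrix. In that list 5 of 16 tested genes were higher in somatic cells and none in germ cells, against 1.57% and 3.23% of all genes. Pax, the paxillin gene, had 273, 297 and 307 CPM in somatic cells against 51.6, 108 and 125 CPM in germ cells (-1.62 ± 0.28, adjusted p = 0.00111). The others were Vinc, for vinculin, with 253, 286 and 340 CPM against 52.7, 121 and 125 CPM (-1.56 ± 0.32), rhea, for talin (-1.54 ± 0.33), mys, for the beta integrin subunit (-1.14 ± 0.26), and parvin (-0.93 ± 0.20). The last 2 were named after their values were seen. In all 5, germ replicate 1 was the lowest library, and the median of the list was -1.03, or -1.64 with that replicate alone. Calls of rhea and Vinc were lost without germ replicate 1 and without some other libraries of 72 h, with adjusted p up to 0.0352 and 0.0206. None of 17 basement membrane genes was called, although 10 had every somatic library above every germ library, against 18.7% of all genes. The list had a median log2 fold change of -1.64. With germ replicate 1 alone that median was -3.39. DESeq2 called 5 of the 17 higher in somatic cells, against 6.5% of all genes, and edgeR without the germ libraries of 96 h called 2, against 5.51%. The perlecan gene trol, for example, had 3661, 3066 and 3923 CPM against 364, 1117 and 1711 CPM (adjusted p = 0.0362).

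Actin regulators gave 3 calls of 27, all in somatic cells, against 1.57% of all genes. DESeq2 called 9 of the 27 higher in somatic cells, against 6.5% of all genes. Without the germ libraries of 96 h edgeR called 12, against 5.51%. Rac2, a GTPase gene, had 667, 719 and 696 CPM against 79.8, 207 and 298 CPM (-1.83 ± 0.40), and cpa and cpb, which encode the subunits of capping protein, had log2 fold changes of -0.90 ± 0.20 and -0.72 ± 0.16. In the cadherin, catenin and fasciclin list Fas1 was higher in somatic cells (-0.94 ± 0.21) and Tl, the Toll receptor gene, in germ cells, with 261, 161 and 159 CPM against 46.5, 62.1 and 74.7 CPM (1.66 ± 0.32, adjusted p = 0.00317). These were the calls among 25 tested members of that list, against 1.57% and 3.23% of all genes. DESeq2 called 8 members higher in somatic cells and 1 in germ cells. Without the germ libraries of 96 h edgeR called 4 and 2. The edgeR calls of Rac2, cpa, cpb, Fas1 and Tl were lost without germ replicate 1, and their adjusted p rose up to 0.0483 over the libraries left out.

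Signalling pathways showed few calls. dlp, a glypican gene that carries BMP and Hedgehog ligands, had 229, 266 and 284 CPM in somatic cells against 61.5, 98.6 and 112 CPM in germ cells (-1.52 ± 0.22, adjusted p = 0.000314). It was the call in somatic cells of both lists (1 of 20 and 1 of 15 tested), against 1.57% of all genes. In the Hedgehog list Pka-C1, the catalytic subunit gene of protein kinase A, was higher in germ cells, with 357, 240 and 222 CPM against 96.0, 64.9 and 81.2 CPM (1.76 ± 0.22, adjusted p = 6.94e-05). Of the EGFR pathway, kek1, an inhibitor of the receptor, had 630, 792 and 968 CPM against 44.3, 113 and 214 CPM (-2.69 ± 0.57), and rho-4, a rhomboid-family gene, 120, 176 and 142 CPM against 55.3, 63.4 and 80.5 CPM (-1.14 ± 0.23). No member of the Notch (23 tested), Wnt (24), FGF (8), JAK/STAT (11), insulin and TOR (21) or JNK (16) lists was called. With germ replicate 1 alone, 6, 5, 1, 2, 2 and 3 members of these lists were higher in somatic cells, and 1 of insulin and TOR in germ cells, where 3.96% and 2.34% of all genes were called. The median of the Notch list was then -1.38 in place of -0.93, and without the germ libraries of 96 h 4 of its members were higher in somatic cells. Wnt4, for instance, had 815, 931 and 890 CPM in somatic cells and 7.91, 160 and 226 CPM in germ cells with an adjusted p of 0.0204, and N, the Notch receptor gene, 730, 588 and 904 CPM against 186, 305 and 382 CPM (adjusted p = 0.0228).

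The Hippo list had 2 members higher in somatic cells and 1 higher in germ cells of 19, against 1.57% and 3.23% of all genes. hpo, the kinase gene that names the pathway, had 107, 122 and 111 CPM in somatic cells against 42.1, 46.9 and 58.8 CPM in germ cells (-1.21 ± 0.25), and sd was the other. dco, a casein kinase gene, had 1090, 758 and 681 CPM in germ cells against 508, 442 and 482 CPM (0.82 ± 0.18). Of the ecdysone response list 2 of 19 genes were called in somatic cells, against 1.57% of all genes. They were the coactivator gene tai, with 157, 145 and 205 CPM against 45.6, 68.1 and 86.1 CPM (-1.34 ± 0.21, adjusted p = 0.000592), and MsrA (-1.68 ± 0.39). In the apoptosis list hid, an inducer of cell death, was the 1 gene of 15 higher in somatic cells (-1.06 ± 0.25, adjusted p = 0.00984), against 1.57% of all genes. The calls of kek1, rho-4, hpo, dco, MsrA and hid were lost without germ replicate 1 and, for each, without other libraries, with adjusted p up to 0.0509 over these genes.

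Among chaperones 3 of 20 tested genes were higher in somatic cells and none in germ cells, against 1.57% and 3.23% of all genes. Hsc70-4, the main constitutive Hsp70-family gene, had 12470, 12300 and 12400 CPM in somatic cells and 5384, 6536 and 7099 CPM in germ cells (-0.97 ± 0.18, adjusted p = 0.00261). Hsc70-3, the chaperone gene of the endoplasmic reticulum, and the co-chaperone gene stv had log2 fold changes of -1.14 ± 0.25 and -2.39 ± 0.55. All 3 lost their call without germ replicate 1 and without other libraries (adjusted p up to 0.0582). The inducible gene Hsp70Ab, named after its values were seen, had 374, 466 and 403 CPM in germ cells and 164, 61.7 and 2213 CPM in somatic cells, so that somatic replicate 3 stood far above the other somatic libraries. Heat shock genes respond to handling, and how the sort entered these values was not tested. Glutathione S-transferases gave 2 calls of 29 in somatic cells, against 1.57% of all genes. These were GstO3 (-2.24 ± 0.43) and GstS1 (-1.36 ± 0.30), both lost without germ replicate 1 (adjusted p up to 0.0187 and 0.0339).

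Genes used by every cell gave few calls. No call was made among 73 mitochondrial ribosomal protein genes (median log2 fold change 0.13), 71 nuclear genes of oxidative phosphorylation (-0.07) and 21 transcripts of the mitochondrial genome (-1.10, or -2.14 with germ replicate 1 alone). Of 38 proteasome genes 1 was higher in somatic cells, against 1.57% of all genes. Mitochondrial transcripts took 1.74%, 4.10% and 4.17% of counts in germ replicates 1, 2 and 3 and between 5.27% and 5.96% in somatic libraries. With library totals in place of TMM scaling the medians of the proteasome, oxidative phosphorylation, insulin and TOR, apoptosis, and glutathione S-transferase lists changed sign, from -0.04, -0.07, -0.26, -0.12 and -0.14 to 0.32, 0.29, 0.13, 0.23 and 0.20, and no direction is given for these lists.

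**Figure D4:**
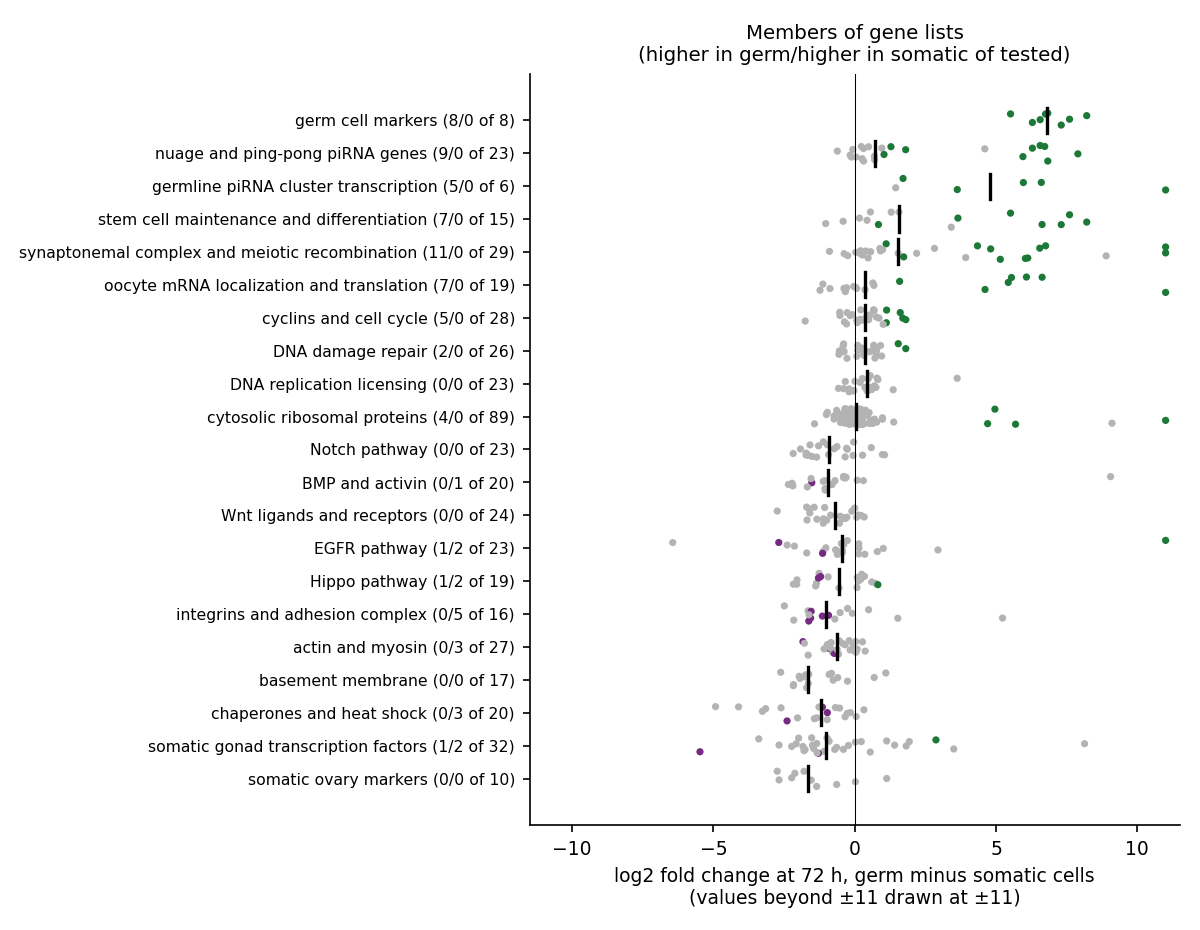
Log2 fold change at 72 h of the tested members of 21 gene lists, with green for genes higher in germ cells, purple for genes higher in somatic cells, grey for genes not called and a black bar at the median. Counts in brackets are those called in germ cells and in somatic cells of those tested, from 8 of 8 germ cell markers to 0 of 10 somatic markers, and members beyond 11 on the log2 scale, at 0 in somatic cells, are drawn at the edge.

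Genes that the fly lines carry on transgenes, or in which a transgene sits, were looked at on their own. Dcr-2 had 81.4, 523 and 572 CPM in germ replicates 1, 2 and 3 and 309, 322 and 316 CPM in somatic cells (0.31 ± 0.79, adjusted p = 0.853), so that the germ libraries lay on both sides of the somatic ones. The gene w, which marks transgenes, had 51.8, 292 and 424 CPM in germ cells and 954, 877 and 1455 CPM in somatic cells (adjusted p = 0.0107), against 3.04 CPM in whole ovaries of Oregon R. The gene bab1, into which the somatic driver is inserted, had 44.7, 32.7 and 34.3 CPM in somatic cells and 15.3, 33.4 and 23.0 CPM in germ cells, with groups that overlapped (adjusted p = 0.263). The genotypes list mutant alleles of w in the parent lines, and a w+ marker on the elements of both driver lines. These elements differ between the driver lines. Reads of Dcr-2 and w can come from a transgene or from the gene itself, and their source was not tested.

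Markers of other tissues were present at low to moderate levels in the sorted cells. Fat body markers summed to 60.9, 23.8 and 21.3 CPM in germ cells and between 2.15 and 3.90 CPM in somatic cells, against at least 20740 CPM in whole ovaries. Of 9 tested 1 was called in germ cells, against 3.23% of all genes. It was apolpp, at 5.41, 7.61 and 5.36 CPM (3.56 ± 0.60, adjusted p = 0.000983), where whole ovaries had 18020 CPM. Haemocyte markers summed to 183 CPM in germ replicate 1, 63.8 and 72.7 CPM in germ replicates 2 and 3 and between 40.4 and 59.3 CPM in somatic cells. The haemocyte gene Hml had 106 CPM in germ replicate 1 and at most 0.0597 CPM in the other 5 libraries. Neuron markers summed to 98.4, 61.7 and 60.8 CPM in germ cells, between 34.2 and 61.7 CPM in somatic cells and between 38.1 and 59.1 CPM in whole ovaries, and trachea markers to at most 11.3 CPM in sorted cells, with no call in either list. Muscle markers summed to 151, 130 and 190 CPM in somatic cells and between 33.4 and 71.1 CPM in germ cells. That list gave 1 call of 6 tested in somatic cells, against 1.57% of all genes. It was sls, for the titin-like protein of muscle, at 145, 120 and 171 CPM against 12.7, 33.1 and 55.5 CPM (-2.10 ± 0.42). The call of sls was lost without germ replicate 1 and without other libraries (adjusted p up to 0.0222), while Mhc, the muscle myosin gene, did not exceed 5.11 CPM. The part of such cells in the results was not tested.

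Calls were spread over all large chromosome arms. Of 1962 genes tested on the X chromosome 93 (4.74%) were higher in germ cells, against between 2.51% and 3.37% on 2L, 2R, 3L and 3R, and the median log2 fold change of X-linked genes was 0.19 against between 0.04 and 0.07 on those arms. On the X 36 genes (1.83%) were higher in somatic cells, against between 1.14% and 1.75%. These shares are a description, and the difference between chromosomes was not tested.

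The direction of the difference at 72 h was held at the later stages for nearly all called genes. Of the 363 genes higher in germ cells, 359 had the same sign at 96 h and 352 at 120 h, and 259 and 235 were called there as well. Of the 176 higher in somatic cells, 173 had the same sign at each later stage, and 86 and 88 were called. These counts are given without the same shares over all genes tested at those stages. They therefore do not show that called genes kept their direction more often than other genes. These stages share no libraries with 72 h but share the estimate of the spread. A test of the change in the difference itself, an interaction term of the same model, found 4 genes (0.0356%) whose difference at 72 h differed from that at 96 h and 13 genes (0.116%) for 120 h, at an adjusted p under 0.01. At an unadjusted p under 0.05 these were 1442 and 1273, and DESeq2 called 418 and 324.

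Several of these genes were higher in germ cells at 72 h and came closer to, or passed, the germ cell level in somatic cells later. Reph, a regulator of Eph receptor expression, had 117, 95.5 and 74.5 CPM in germ cells and 12.3, 5.55 and 12.4 CPM in somatic cells at 72 h, and means of 117 and 108 CPM at 120 h, a difference between stages of 3.14 ± 0.39 on the log2 scale (adjusted p = 0.0015). CBP had 77.0, 60.4 and 69.1 CPM in germ cells and 14.8, 4.27 and 3.17 CPM in somatic cells at 72 h, and 123 and 385 CPM at 120 h (4.86 ± 0.72, adjusted p = 0.00548). zfh2 was higher in germ cells at 72 h (above) and had means of 15.1 CPM in germ cells and 79.0 CPM in somatic cells at 120 h (5.26 ± 0.85, adjusted p = 0.00892). CG31075 had 29.3 CPM in germ cells and 2.27 CPM in somatic cells at 72 h, 27.9 and 19.6 CPM at 96 h and 42.2 and 28.9 CPM at 120 h. Its difference was larger at 72 h than at 96 h (3.18 ± 0.43, adjusted p = 0.0059) and than at 120 h (3.14 ± 0.43, adjusted p = 0.00385).

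Others fell in somatic cells after 72 h. rdog had 324, 244 and 209 CPM in germ cells and 288, 409 and 582 CPM in somatic cells at 72 h, and means of 203 and 22.4 CPM at 120 h (-3.90 ± 0.42, adjusted p = 0.000556). Abca3, an ABC transporter gene, had 155 and 125 CPM at 72 h and 93.4 and 5.61 CPM at 120 h (-3.74 ± 0.43, adjusted p = 0.000702). Oseg5, described above at 72 h, had means of 25.5 CPM in germ cells and 30.2 CPM in somatic cells at 120 h (-2.70 ± 0.39, adjusted p = 0.00387), so that the gap of 72 h was no longer present. Over each library left out and each other setting, Reph passed the threshold for 120 h in 26 of 26, rdog and Abca3 in 25 of 26, CG31075 and Oseg5 in 15 of 26, CBP in 12 of 26 and zfh2 in 7 of 26. For 96 h, CG31075 passed in 9 of 25, with adjusted p up to 0.0218.

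**Figure D5:**
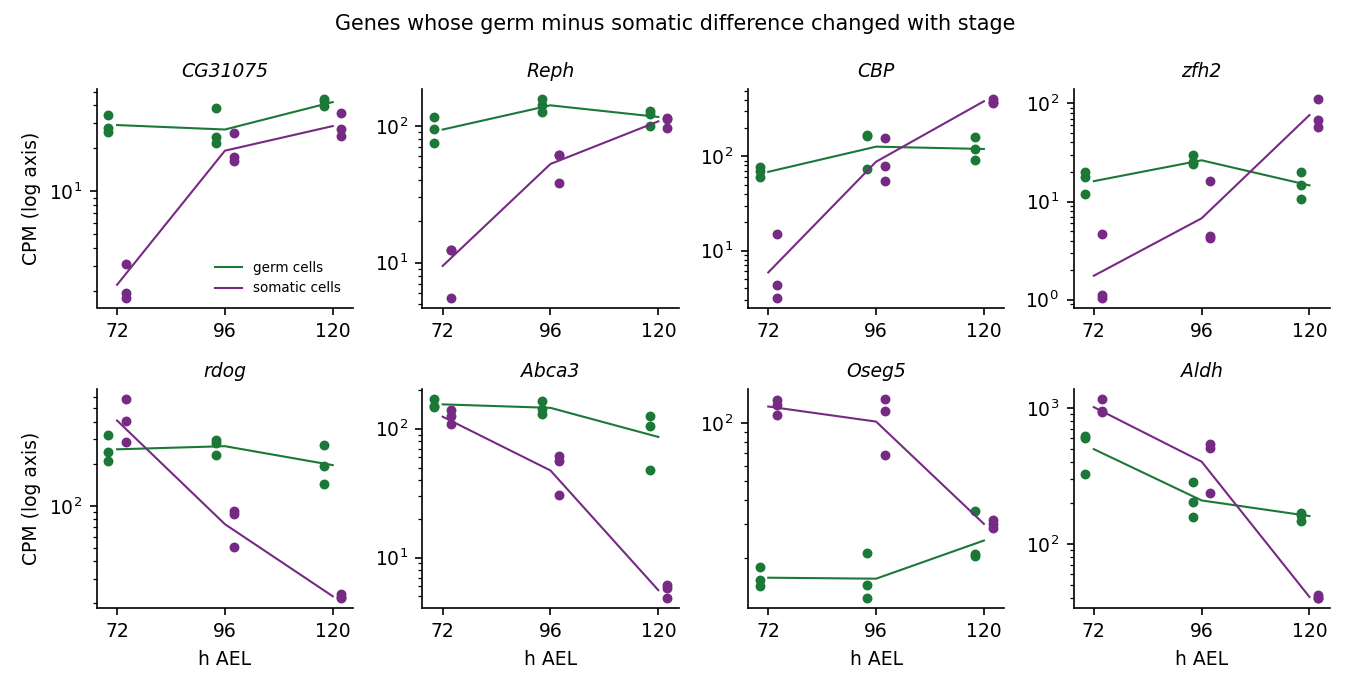
CPM (log axes) of 8 genes whose germ minus somatic difference at 72 h differed from that of a later stage, with each library of 72, 96 and 120 h AEL as a point and geometric means joined by lines, germ cells in green and somatic cells in purple. In the upper genes (CG31075, Reph, CBP and zfh2) somatic cells start below germ cells and approach or pass them by 120 h, and in the lower genes (rdog, Abca3, Oseg5 and Aldh) somatic cells start near or above germ cells and end level with germ cells (Oseg5) or below them by 120 h.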

How the data were processed

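The authors quantified 50 bp single-end reads with STAR 2.7.6a and RSEM 1.3.3 against FlyBase r6.36 and summed a sample's runs. They deposited expected counts per gene (16257 genes), not normalized, in which RSEM divides a read shared by several genes. These deposited expected counts were rounded to whole numbers. Whether the counting used strand is not given in the sources used here, and 45 of the 80 named genes that were called overlap another annotated gene, 10 of them on the same strand, so that their reads are uncertain. The Ensembl annotation of the BDGP6 assembly (release 115) gave symbols and positions and held 16206 of these genes.

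Genes were tested with edgeR 4.0.16 (R 4.3.3): filterByExpr (minimum 10 counts, 15 in total), TMM, robust quasi-likelihood fit of the 18 sorted libraries with a group per cell type and stage, Benjamini-Hochberg adjustment over all genes tested, and calls at an adjusted p under 0.01. The tests were tested on simulated data. CPM of whole ovaries and sorted cells set side by side were scaled together over 27 libraries. Folds given as "at least" use a floor of 3 counts over the group on the TMM scale, which covers counting error only. Values after ± (SE) were back-calculated from edgeR's test, as the absolute log2 fold change over the square root of its F statistic. No source says how the larvae were divided among samples, so p-values measure the spread between these samples. An exact permutation test of 3 against 3 libraries has a smallest two-sided p of 0.1, so calls rest on the spread estimated over all genes.

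Members and lists were chosen with earlier results of these data known, and support nothing on their own. Genes were named by this rule: the 15 with the smallest p in each direction without overlap of libraries, the 3 members of each list with the smallest p in each direction, defining markers, the 5 with the smallest p in each interaction and genes on the transgenes. Genes named beyond it (ovo, otu, bam, spn-E, RpS5a, RpS10b, RpL22, Hsp70Ab, mys, parvin, trol, N and the neighbours of CG31676 and Cyp4p2) were chosen after their values were seen or by the marker list. Alternatives were DESeq2 1.42.0, limma 3.58.1 (voom), other scalings, no filter, 72 h libraries alone, a replicate block, a threshold of 0.05 and leaving out libraries. A planned count of promoter motifs was not run, and some genes are not reported here.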

Additional observations from a re-analysis of the deposited data

Results flagged for a closer look

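Interaction tests singled out genes whose germ minus somatic difference changed with stage, by edgeR's quasi-likelihood test of the difference itself. Values are log2 differences at 72 h minus those of the later stage. For 96 h these were mRpL43 (8.82), ND-13B (11.90) and CG31075 (3.18). ND-13B, a complex I gene, had no count in the 3 germ libraries of 96 h and mRpL43, a mitochondrial ribosomal protein gene, a mean of 0.0127 CPM there, while both had between 8.83 and 17.0 CPM in germ cells at 72 h. Their values at 96 h therefore set the size of the difference, and at 120 h the same tests gave no call for them (lowest adjusted p over all settings 0.282).

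For 120 h the difference was larger at 72 h for Reph (3.14), CG31075 (3.14), CBP (4.86), retm (1.76), stj (8.90) and zfh2 (5.26). The signed difference, germ minus somatic, was lower at 72 h for rdog (-3.90), Abca3 (-3.74), CG32625 (-7.14), Aldh (-2.95), Oseg5 (-2.70), SpdS (-2.19) and ValRS (-1.51). stj had no count in somatic cells at 72 h, and CG32625 a mean of 0.0438 CPM in somatic cells at 120 h, so that these fitted sizes depend on the prior count. For Oseg5 the lower value is a larger excess in somatic cells at 72 h. Aldh, an aldehyde dehydrogenase gene, had 1016 CPM in somatic cells at 72 h and 41 CPM at 120 h, against 518 and 161 CPM in germ cells. ValRS, the valyl-tRNA synthetase gene, had 276 and 111 CPM in somatic cells and 232 and 265 CPM in germ cells.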

How the results depend on the processing

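Counts of genes higher in germ cells and in somatic cells (363 and 176) were 1069 and 714 with DESeq2, 913 and 607 with limma voom, 565 and 69 without scaling, 853 and 618 without the 96 h germ cell libraries, 863 and 665 at an adjusted p under 0.05, 147 and 34 with the 72 h libraries alone and 297 and 504 with germ replicate 1 alone at 72 h. Leaving out each library in turn gave between 230 and 571 and between 58 and 383. With a replicate block the counts were 281 and 115, and 29 and 6 for the 72 h libraries alone with a replicate block. Same-numbered germ and somatic libraries deviated from their group means with correlations of 0.0193, 0.0207 and 0.00843. For libraries of different numbers these lay between -0.0196 and 0.00412. Whether libraries of the same number shared a day or batch was not tested. Counts for 96 h and 120 h (4 and 13) were 0 and 7 with the replicate block, 418 and 324 with DESeq2, 42 and 2 with voom, 52 and 59 with germ replicate 1 alone at 72 h, and 4 and 10 with RLE size factors or without a filter. Without scaling they were 3 and 6, and 57 for 120 h without the 96 h germ cell libraries. Leaving out each library gave between 0 and 220 and between 3 and 25. The cause of these changes was not tested.

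No named gene that was called changed sign. Of 80 such genes, 64 lost their call under at least 1 of the settings other than leaving out a library, and 26 without at least 1 library, 25 of them without germ replicate 1. DESeq2 gave a value for 79 and kept all 79. The depth of 21678745 counts in germ replicate 1 limits levels below 0.138 CPM.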
